A study of Mus musculus with 6 samples.

Results

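MHC class I and antigen processing genes were followed in mouse adult fibroblasts (MAFs) as a set of 10 genes, taken by name from the table of gene counts, which lists 43346 genes. They are the heavy chain genes *H2-K1* and *H2-D1*, the light chain gene *B2m*, the transporter and loading genes *Tap1*, *Tap2* and *Tapbp*, the immunoproteasome genes *Psmb8*, *Psmb9* and *Psmb10*, and the transactivator gene *Nlrc5*. Each name matched 1 row, and all 10 passed the filter on low counts that kept 17589 genes. MAFs were primary cells grown from ear tissue of adult female C57BL/6J mice at 3% O2 and used from passage 3 to passage 8. The 3 senescent samples had received 20 Gy of X-rays and had then been kept in culture for 21 days, whereas the 3 control samples were sham irradiated. Every sample had been given 100 nM dexamethasone for 2 hours to set the circadian clock and was harvested 12 hours later, so a state without dexamethasone was not part of the comparison. The labels do not say whether the samples of a group came from separate animals or cultures, so p-values measure the spread between these samples, which may be technical.

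MHC class I molecules display short peptides from a cell's own proteins on its surface, where CD8+ T cells read them and where NK cells sense their loss. The proteasome cuts cytosolic proteins into peptides, the TAP transporter carries these into the endoplasmic reticulum, and tapasin holds the empty heavy and light chains close to TAP until a peptide binds. In most tissues interferons raise these genes together, and NLRC5, which has no DNA-binding domain of its own, is recruited by the RFX, CREB/ATF and NF-Y factors that sit on the X and Y boxes of class I promoters. Fibroblasts express class I constitutively and have few immunoproteasomes at rest.

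Promoter windows from RefSeq (GRCm38.p6), which run from 250 bases before the transcription start to 50 bases after it, were found for 8 of the 10 genes, and not for *Tap2* and *Nlrc5*. The windows of *H2-K1*, *H2-D1*, *B2m* and *Tap1* are printed because they hold an X2 box (TGACG) and a Y box (CCAAT), the letters through which NLRC5 is known to reach class I genes. The *Psmb9* window is the fifth with both boxes and is not printed, because it covers much of the *Tap1* window on the other strand. Capitals mark matches, on either strand, to any of 7 motifs searched, namely these boxes, the interferon-stimulated response element (GAAANNGAA), the gamma-activated site (TTCNNNGAA), the NF-kB site (GGGANTTTC), the AP-1 site (TGACTCA) and the E-box (CACGTG). Each window is written 5′ to 3′ on the strand of its gene. The windows lie at chr17:34000298-34000597 on the minus strand (*H2-K1*, the first of 2 windows listed for it), and at chr17:35262844-35263143 (*H2-D1*), chr2:122147437-122147736 (*B2m*) and chr17:34187306-34187605 (*Tap1*) on the plus strand.
H2-K1: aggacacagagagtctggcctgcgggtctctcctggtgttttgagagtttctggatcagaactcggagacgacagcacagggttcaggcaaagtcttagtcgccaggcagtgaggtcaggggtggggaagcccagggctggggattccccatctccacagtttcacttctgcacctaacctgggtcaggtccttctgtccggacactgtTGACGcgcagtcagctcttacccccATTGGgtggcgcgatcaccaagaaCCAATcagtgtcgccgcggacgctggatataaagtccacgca
H2-D1: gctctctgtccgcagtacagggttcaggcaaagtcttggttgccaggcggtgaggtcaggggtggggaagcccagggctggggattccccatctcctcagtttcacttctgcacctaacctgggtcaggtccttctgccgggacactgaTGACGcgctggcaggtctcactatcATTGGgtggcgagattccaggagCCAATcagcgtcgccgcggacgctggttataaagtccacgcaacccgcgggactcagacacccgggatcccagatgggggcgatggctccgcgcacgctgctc
B2m: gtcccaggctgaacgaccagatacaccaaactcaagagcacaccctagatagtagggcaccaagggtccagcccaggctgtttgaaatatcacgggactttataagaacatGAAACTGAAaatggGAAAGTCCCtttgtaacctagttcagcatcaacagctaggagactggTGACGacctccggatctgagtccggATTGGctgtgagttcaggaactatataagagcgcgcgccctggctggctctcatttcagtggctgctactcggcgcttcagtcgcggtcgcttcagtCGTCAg
Tap1: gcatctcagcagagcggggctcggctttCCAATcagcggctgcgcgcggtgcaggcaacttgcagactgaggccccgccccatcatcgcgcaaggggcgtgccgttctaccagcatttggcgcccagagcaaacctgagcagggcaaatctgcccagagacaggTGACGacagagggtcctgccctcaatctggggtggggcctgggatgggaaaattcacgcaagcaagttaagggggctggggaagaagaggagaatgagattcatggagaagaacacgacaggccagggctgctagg

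In *H2-K1*, *H2-D1* and *B2m*, the X2 box was followed after exactly 20 bases by the Y box in reverse (ATTGG). Counted from the listed start as 0, the X2 box began at base -41 in *H2-K1*, -101 in *H2-D1* and -78 in *B2m*. This pair with this spacing, which was chosen after the matches had been seen, was present in 31 of 32851 promoter windows of all genes (0.0944%), or 27 genes, among them *H2-M3*, which encodes a non-classical class I heavy chain. Alone, the Y box was in 6 of the 8 windows of the set and in 37.4% of all windows, and the X2 box in 5 of 8 and 20.8%. In these counts the boxes of *Tap1* and *Psmb9* are the same bases read on opposite strands, so each box is counted for both genes. The *Tap1* window, which overlaps that of *Psmb9* because these neighbours start in opposite directions, held the Y box from base -222 and the X2 box from base -86, in the other order. The letters of the interferon-stimulated response element and the NF-kB site matched only the *B2m* window of the set (8.56% and 1.11% of all windows). Those of the gamma-activated site matched only that of *Psmb8* (8.30%), and those of the E-box only that of *Psmb10* (7.15%). Only these exact letters were searched, so a window without a match can still hold such an element in other letters. The *H2-K1* and *H2-D1* windows both hold the stretches ggggattcccc and gtttcacttct, which the letters do not match and which were not assessed. The AP-1 site matched 0 of the 8 windows and 5.2% of all. The windows of *H2-K1* and *H2-D1* were 59.3% identical when aligned end to end with gaps counted as differences, the highest value among the pairs of the set. Their alignment held 214 identical bases, 25 mismatched bases and 122 gaps, so most of the difference was gaps and the bases set against each other were mostly identical. These are matches of letters and not measured binding.

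The 10 genes did not move as 1 block. Compared to control cells, 5 genes were higher in senescent cells (*Nlrc5*, *B2m*, *H2-D1*, *Psmb8* and *H2-K1*), 2 were lower (*Tapbp* and *Psmb10*), and 3 did not pass the test (*Tap1*, *Tap2* and *Psmb9*). A gene was called at an adjusted p under 0.05 in edgeR's quasi-likelihood test of all 17589 genes. By this rule 70.3% of all tested genes were called, 36.2% higher and 34.1% lower, so that 7 calls among 10 genes are close to the share of the whole table. A term for GC content, added after seeing the data, moved the split of all calls from 6360 higher and 6005 lower to 5709 higher and 8286 lower and left the calls of the 10 genes as they were. This term also takes out each library's mean log2 CPM, so it rescales the libraries besides fitting GC content. How much each part did was not tested. The study's methods asked instead for more than a 2-fold difference at an unadjusted p under 0.05, which 30.1% of all genes passed. By that threshold 3 of the 10 were higher (*Nlrc5*, *B2m* and *H2-D1*, against 17.8% of all genes) and 0 were lower (against 12.3%). The median log2 fold change of the 10 genes was 0.19, against 0.01 for all genes. The groups did not overlap in the 7 called genes (5 higher and 2 lower), nor in 75.3% of all genes (38.4% higher and 37% lower). Together the 10 genes held 0.0718% ± 0.00160 of all counts in control and 0.157% ± 0.000864 in senescent cells, and here as elsewhere a value after ± that is not named an SE is the SD over the 3 libraries of a group. *B2m* alone gave 17139 of the 35662 counts of the set in control replicate 1 and 54496 of 84070 in senescent replicate 1.

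**Figure D1:**
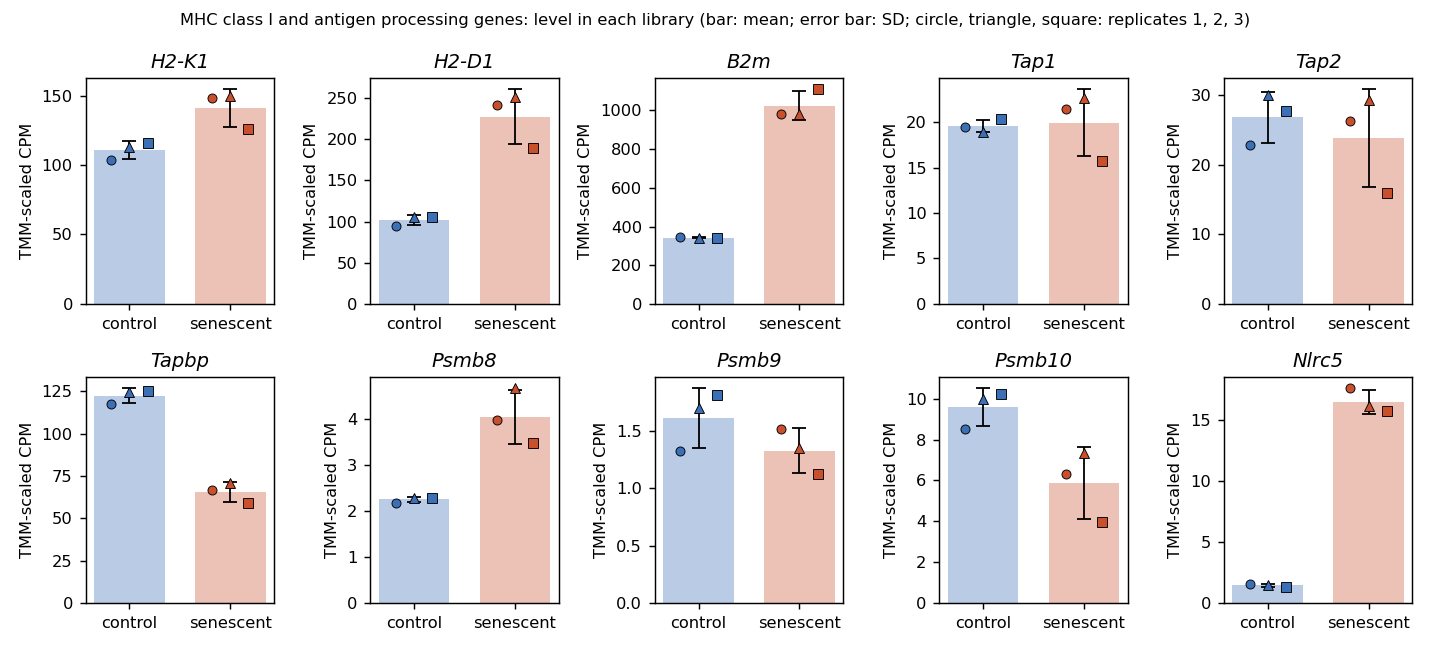
Level of each gene in CPM, the counts scaled to library size with TMM factors (y axis, from 0), in the 3 control and 3 senescent libraries (symbols), with the mean (bar) and SD (error bar). The groups are apart in *H2-K1*, *H2-D1*, *B2m*, *Tapbp*, *Psmb8*, *Psmb10* and *Nlrc5* and overlap in *Tap1*, *Tap2* and *Psmb9*.

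The libraries held between 50288454 and 82229553 counts, and a count of 0, which allows up to 3 counts, corresponds to a limit between 0.0355 and 0.0613 CPM, for counting error alone. The marker counts that follow stand beside 36.2% higher and 34.1% lower among all tested genes. Of 12 fibroblast markers, 3 were higher and 8 lower, and they summed to between 20476 and 22505 CPM in control libraries and between 8224 and 9328 CPM in senescent libraries. Chondrocyte markers fell in 10 of 10 tested genes, from sums of 6856 to 7362 CPM to sums of 615 to 700 CPM. Of 17 leukocyte markers, 12 stayed under 1 CPM in every library, but 8 of the 10 tested were higher in senescent cells, with sums of 9.58 to 9.99 CPM in control and 20.5 to 23.8 CPM in senescent libraries. *Ptprc*, which encodes the leukocyte antigen CD45, had means of 0.181 ± 0.0618 and 1.39 ± 0.166 CPM in control and senescent cells. The myeloid genes *Lyz2* (0.256 ± 0.159 and 4.52 ± 0.547 CPM) and *Itgam* (0.00681 ± 0.0118 and 0.505 ± 0.164 CPM) were higher too, while *Cd3e*, *Cd3d* and *Tyrobp* were at 0 in control cells and at 0.0310 CPM or less on average in senescent cells. All 5 tested endothelial markers were higher as well (sums of 2.55 to 2.96 and 8.30 to 8.85 CPM), and of 6 tested keratinocyte markers 2 were higher and 1 lower (sums of 23.8 to 25.5 and 30.6 to 36.9 CPM). The part of these markers in the results below was not tested, and in bulk RNA, fewer cells of a type and less RNA per cell cannot be told apart. Senescent replicate 3 stood apart in GC content, since over 17425 genes its deviation from the senescent mean correlated with the GC content of the transcript (r = -0.678), where the other libraries gave r between -0.238 and 0.518. Each group mean includes the library itself, so the r of 0.420 and 0.518 in senescent replicates 1 and 2 are not independent of that value. Senescent replicate 3 was the lowest senescent library for 9 of the 10 genes and the highest for *B2m*, whose transcript has 41.2% GC against 52.5% to 57.1% in the others. Without this library the log2 fold changes were 3.54 for *Nlrc5*, 1.53 for *B2m*, 1.29 for *H2-D1*, 0.96 for *Psmb8*, 0.43 for *H2-K1*, -0.47 for *Psmb10* and -0.82 for *Tapbp*, and all 7 calls held.

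The light chain and both classical heavy chains were higher in senescent cells, and by unequal amounts. *B2m* (ENSMUSG00000060802, chromosome 2 of mm10 from 122147686 to 122153083), which encodes β2-microglobulin, the chain that every class I heavy chain needs to fold, was at 344, 341 and 340.2 CPM in control replicates 1, 2 and 3 and at 983, 982 and 1109.9 CPM in senescent replicates 1, 2 and 3. The control values lay close together, and every senescent value was far above them. The mean rose 3.00-fold, with a log2 fold change of 1.59 ± 0.07 (SE) and an adjusted p of 3.99e-07. With the GC term this log2 fold change was 1.24.

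*H2-D1* (ENSMUSG00000073411, chromosome 17 from 35262730 to 35267499) encodes the class I heavy chain H-2D. It was at 94.6, 105 and 105 CPM in control and at 242, 251 and 189 CPM in senescent replicates 1, 2 and 3. The lowest senescent value, in replicate 3, was still well above the highest control value. The mean rose 2.24-fold, with a log2 fold change of 1.16 ± 0.11 (SE) and an adjusted p of 4.29e-05.

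*H2-K1* (ENSMUSG00000061232, chromosome 17 from 33996017 to 34000333) encodes the heavy chain H-2K. Its values were 104, 113 and 116 CPM in control and 148, 149.6 and 126 CPM in senescent replicates 1, 2 and 3. The gap between the groups was small, as senescent replicate 3 came near control replicate 3. The mean rose 1.27-fold, with a log2 fold change of 0.35 ± 0.08 (SE) and an adjusted p of 0.00627. Of the stretches of 100 bases in their transcripts, 0.957% for *H2-K1* and 3.59% for *H2-D1* also occur in transcripts of other genes, most often of other H2 genes such as *H2-Q10* and *H2-Q1*, so reads from these stretches can have been split or lost.

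The groups also stood apart in the ratios of these chains within a library, which do not depend on how libraries are scaled. Per base of gene length, *H2-K1* and *H2-D1* counts stood at 1.08, 1.06 and 1.09 to 1 in control replicates 1, 2 and 3 and at 0.607, 0.588 and 0.657 to 1 in senescent replicates 1, 2 and 3. The heavy chain genes were thus about equal in control cells, and *H2-D1* exceeded *H2-K1* in all 3 senescent libraries. The log2 ratio differed by -0.81 (95% interval -0.94 to -0.67, from the spread between libraries). *H2-K1* per *B2m* went from 0.107 ± 0.00674 to 0.0457 ± 0.00730 and *H2-D1* per *B2m* from 0.0993 ± 0.00645 to 0.0747 ± 0.0156, log2 differences of -1.24 (-1.65 to -0.82) and -0.43 (-0.97 to 0.11). Without senescent replicate 3 the *H2-D1* per *B2m* difference was -0.25. The groups did not overlap in any of the 3 ratios, and each gave p = 0.1 in a two-sided exact permutation test (adjusted p = 0.1 over 3 ratios), the smallest that 3 samples against 3 can give. With the GC term, *B2m* and *H2-D1* rose by log2 fold changes of 1.24 and 1.14.

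**Figure D2:**
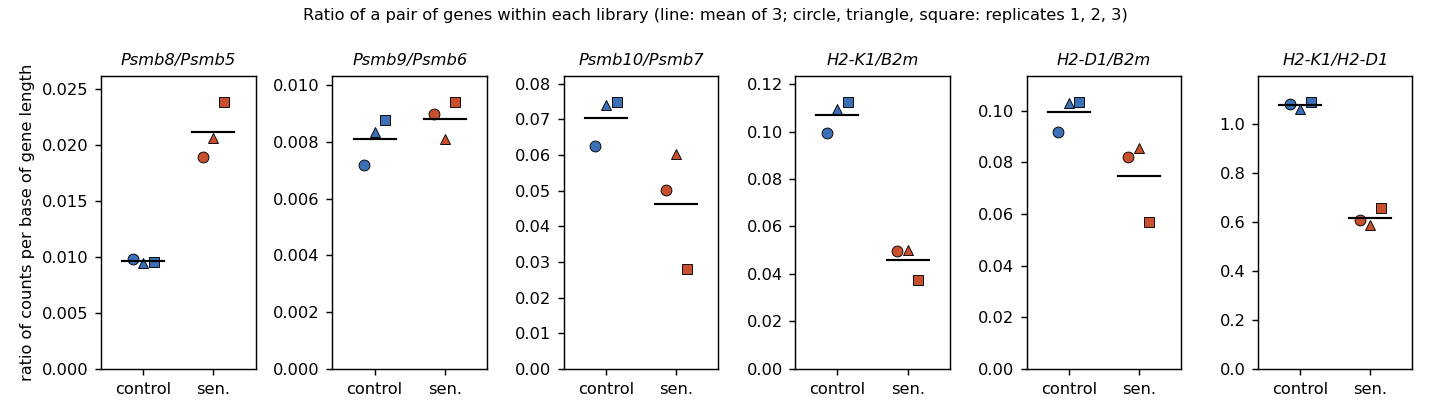
Ratio of a pair of genes within each library, as counts per base of gene length (y axis, from 0), for 3 control and 3 senescent libraries (symbols) with their mean (line). The mean of *H2-K1*/*H2-D1* is 1.08 in control and 0.617 in senescent libraries and that of *Psmb8*/*Psmb5* 0.00962 and 0.0211, while *Psmb9*/*Psmb6* overlaps between the groups.

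None of the peptide transport and loading genes was called higher with all 6 libraries. *Tap1* (ENSMUSG00000037321, chromosome 17 from 34187553 to 34197225) and *Tap2* (ENSMUSG00000024339, chromosome 17 from 34203527 to 34216321) encode the chains of the peptide transporter, which works as a heterodimer. *Tap1* was at 19.4, 19.0 and 20.3 CPM in control and at 21.5, 22.6 and 15.7 CPM in senescent replicates 1, 2 and 3. Senescent replicates 1 and 2 lay above all control values and replicate 3 below them. The log2 fold change was 0.03 (95% interval -0.24 to 0.29, adjusted p = 0.875), and without senescent replicate 3 it was 0.18 and passed the test (adjusted p = 0.0132).

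*Tap2* was at 22.8, 30.0 and 27.7 CPM in control and at 26.3, 29.3 and 16.0 CPM in senescent replicates 1, 2 and 3. These values overlapped, with senescent replicate 3 again the lowest. The log2 fold change was -0.17, with a 95% interval from -0.59 to 0.25 (adjusted p = 0.499), and without that library it was 0.06 (adjusted p = 0.624). *Tapbp* (ENSMUSG00000024308, chromosome 17 from 33915899 to 33929288), which encodes tapasin, was at 117, 125 and 125 CPM in control and at 66.6, 70.7 and 58.8 CPM in senescent replicates 1, 2 and 3. Every senescent value was below every control value, with a mean ratio of 0.534, a log2 fold change of -0.90 ± 0.08 (SE) and an adjusted p of 2.40e-05. Of its exon bases, 24.9% are also covered on the opposite strand by *Gm19412*, which had 472 counts over all 6 libraries, and the strand setting of the counting is not given in the sources used here. A further 149 exon bases (4.11%) are shared on the same strand with *Zbtb22*, which had 6355 counts and a log2 fold change of -0.67 (adjusted p = 0.00462), so reads there cannot be told apart by strand.

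Among the immunoproteasome genes, 1 rose, 1 fell and 1 did not pass the test. Their proteins replace the catalytic subunits of the constitutive proteasome, *Psmb8* that of *Psmb5*, *Psmb9* that of *Psmb6* and *Psmb10* that of *Psmb7*. *Psmb8* (ENSMUSG00000024338, chromosome 17 from 34197721 to 34201454) was at 2.19, 2.29 and 2.29 CPM in control and at 3.99, 4.68 and 3.50 CPM in senescent replicates 1, 2 and 3. All senescent values were higher, with a log2 fold change of 0.84 ± 0.13 (SE) and an adjusted p of 0.000699.

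*Psmb10* (ENSMUSG00000031897, chromosome 8 from 105935728 to 105938392) was at 8.52, 10.0 and 10.2 CPM in control and at 6.33, 7.36 and 3.95 CPM in senescent replicates 1, 2 and 3. The senescent values were all lower, widely spread, and lowest in replicate 3. The log2 fold change was -0.71 ± 0.21 (SE) with an adjusted p of 0.0174, and the call was lost without control replicate 2 (adjusted p = 0.0532) or control replicate 3 (0.0565). Without senescent replicate 3 the log2 fold change was -0.47 and still called (adjusted p = 0.000447). *Psmb9* (ENSMUSG00000096727, chromosome 17 from 34181988 to 34187764) had between 66 and 107 counts in a library, the fewest of the set in senescent cells. It was at 1.32, 1.71 and 1.82 CPM in control and at 1.52, 1.35 and 1.13 CPM in senescent replicates 1, 2 and 3, which overlap. The log2 fold change was -0.29 (95% interval -0.64 to 0.05, adjusted p = 0.171). *Psmb9* and *Tap1* share 212 exon bases on opposite strands.

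The constitutive subunits were far more abundant. *Psmb6* had means of 102 ± 6.37 and 77.7 ± 14.1 CPM in control and senescent cells (adjusted p = 0.0270), a call that was lost in 5 of the alternatives. *Psmb5* (74.7 ± 3.54 and 62.1 ± 13.5 CPM) and *Psmb7* (130.2 ± 0.983 and 124 ± 9.23 CPM) did not pass the test, though both did with the GC term, at log2 fold changes of -0.27 and -0.43, and *Psmb7* also without senescent replicate 3, at -0.13. Per base of gene length, *Psmb8* counts were 0.00962 of those of *Psmb5* in control and 0.0211 in senescent cells, a log2 difference of 1.13 (95% interval 0.86 to 1.40). *Psmb10* went from 0.0704 to 0.0462 of *Psmb7*, a log2 difference of -0.68 (-1.63 to 0.28) that was -0.35 without senescent replicate 3. *Psmb9* went from 0.00809 to 0.00882 of *Psmb6*, a log2 difference of 0.13 (-0.17 to 0.43) that was 0.08 without that library. In two-sided exact permutation tests of these 3 ratios, p was 0.1, 0.1 and 0.4 (adjusted 0.15, 0.15 and 0.4). Per base of the deposited gene length, immunoproteasome transcripts thus remained below 0.1 of their constitutive counterparts in all 6 libraries.

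*Nlrc5* (ENSMUSG00000074151, chromosome 8 from 94472763 to 94527272), the class I transactivator gene, had the largest fold change of the 10 genes. It was at 1.56, 1.49 and 1.31 CPM in control replicates 1, 2 and 3, from 78, 89 and 64 counts, and at 17.6, 16.2 and 15.7 CPM in senescent replicates 1, 2 and 3, from 977, 1281 and 1329 counts. The senescent libraries lay close together, and each was many times higher than any control library. The mean rose 11.4-fold, with a log2 fold change of 3.50 ± 0.11 (SE) and an adjusted p of 8.18e-08, and the log2 fold change stayed between 3.41 and 3.58 in all 14 alternatives.

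**Figure D3:**
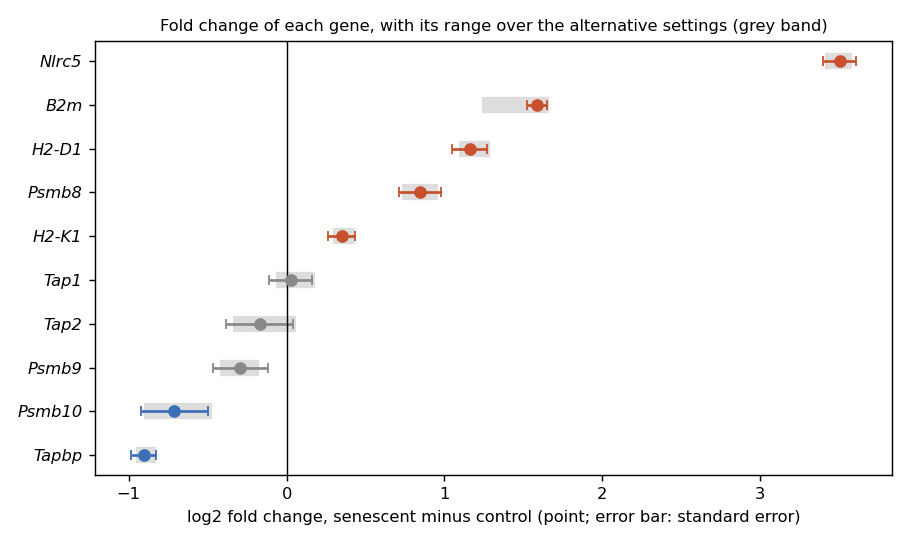
Log2 fold change of senescent minus control cells for each gene (x axis; point, with the standard error as error bar; red called higher, blue called lower, grey not called) and its lowest and highest value over the alternative settings (grey band). *Nlrc5* lies at 3.50 and *Tapbp* at -0.90, and the bands of *Tap1* and *Tap2* cross 0.

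Levels between genes were compared per length, as RPKM, which is the CPM divided by the gene length in kilobases. For *Tap1* and *Tap2* the deposited length equals all exon bases of the gene (5476 and 3781). Such a length can exceed that of a single transcript, so the order of genes depends on it. *B2m* came first in both groups, with 397 ± 2.08 and 1192 ± 85.5 RPKM in control and senescent cells. In control cells *H2-K1* (42.5 ± 2.46 RPKM), *H2-D1* (39.4 ± 2.37 RPKM) and *Tapbp* (37.1 ± 1.33 RPKM) followed, and neighbours in this order overlapped between libraries. In senescent cells the order was *H2-D1* (88.1 ± 13.0 RPKM), *H2-K1* (54.1 ± 5.15 RPKM) and *Tapbp* (19.8 ± 1.84 RPKM), with no overlap between neighbours. *Psmb10*, *Tap2* and *Tap1* came next, between 3.57 and 7.55 RPKM in control and between 3.64 and 6.31 RPKM in senescent cells. *Nlrc5* was the lowest in control cells (0.190 ± 0.0172 RPKM) and exceeded *Psmb8* (1.48 ± 0.218 RPKM) and *Psmb9* (0.364 ± 0.0535 RPKM) in senescent cells, at 2.16 ± 0.129 RPKM. The genes whose centred log2 CPM over the 6 libraries was nearest to that of *H2-K1* were *Ski*, *Uck1* and *Ybx3*, with root mean square distances of 0.0226, 0.0275 and 0.0293 among 9753 genes.

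The factors through which NLRC5 and interferons are known to act on class I genes were called in both directions. Of 18 tested regulators, 4 were higher, 9 lower and 5 not called, against 36.2% higher and 34.1% lower in the whole table, with a median log2 fold change of -0.19. With the GC term, under which more of all genes were lower, 3 were higher and 12 lower. *Rfx5*, which encodes a subunit of the X box factor RFX, fell from 46.0 ± 0.109 to 19.2 ± 1.18 CPM. *Irf1*, an interferon-induced activator of class I promoters, fell from 25.0 ± 0.524 to 13.6 ± 0.501 CPM. *Irf7* rose from 4.86 ± 0.269 to 8.08 ± 1.53 CPM. *Irf2* and *Nfyb* had log2 fold changes of 0.33 and 0.37, and both calls were lost with the GC term (0.09 and 0.04). *Ciita*, the class II transactivator, was too low for the test, at 0.0304 ± 0.0267 and 0.150 ± 0.0929 CPM.

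Interferon-stimulated genes rose in 24 of 24 tested members of a list of 25, with a median log2 fold change of 1.52, against 36.2% higher in the whole table. *Ifit3*, *Oasl2* and *Bst2* had log2 fold changes of 2.42, 2.90 and 2.37. The interferon genes themselves were hardly seen. All 8 genes listed (*Ifnb1*, *Ifna1*, *Ifna2*, *Ifna4*, *Ifng*, *Ifnl2*, *Ifnl3* and *Ifne*) were below the filter, 5 of them with 0 counts in every library, and their sum reached at most 0.0401 CPM in control and 0.126 CPM in senescent libraries. Without the filter, *Ifne*, which is named here after its value was seen, was called higher (0.00668 ± 0.0116 and 0.0817 ± 0.0284 CPM, adjusted p = 0.0177), and *Ifnb1* and *Ifna2* were not. A list of interferon receptor and signaling genes held *Socs1* and *Socs3* beside receptors and their kinases. In it 3 of 10 genes were higher, 4 lower and 3 not called, which is near the 36.2% and 34.1% of the whole table. With scaling by library size alone 5 were higher. *Ifngr1* and *Ifngr2*, which encode the receptor for interferon gamma, had log2 fold changes of 0.70 and 0.75, *Jak1* one of 0.29 that lost its call with the GC term, *Ifnar1* one of -0.21, and *Tyk2* and *Socs3* ones of -0.87 and -1.28.

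Of 15 other class I heavy chain genes tested, 5 were higher, 4 lower and 6 not called, near the 36.2% and 34.1% of the whole table (median log2 fold change 0.33). *H2-Q4* rose from 9.39 ± 0.359 to 20.9 ± 1.80 CPM, *H2-Q6* from 0.272 ± 0.0690 to 4.65 ± 0.0626 CPM and *H2-Q7* from 1.25 ± 0.0898 to 2.37 ± 0.555 CPM, though these genes are near-copies of each other and their reads can have been exchanged. *H2-T23*, which encodes the Qa-1 molecule read by NK cells, had a log2 fold change of 0.34 (adjusted p = 0.0357), with overlap between the groups and no call in 6 of the alternatives. *H2-M3*, whose promoter window holds the spaced X2 and Y boxes, had means of 3.54 ± 0.347 and 4.33 ± 0.339 CPM and did not pass the test (adjusted p = 0.0505), though it did in 7 of the alternatives. *Cd1d1*, which presents lipids, *Hfe*, a regulator of iron uptake, and *Fcgrt*, the neonatal Fc receptor, pair with β2-microglobulin too and fell by 1.04, 0.87 and 0.72 on the log2 scale.

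A list of 9 genes covered chaperones of the endoplasmic reticulum, peptide trimming and the protein translocon, and so not class I folding alone. Of these, 6 were lower, 1 higher and 2 not called, against 34.1% lower and 36.2% higher in the whole table (median log2 fold change -0.29). With scaling by library size alone 4 were lower and 2 higher, and with the GC term 8 were lower and 0 higher. *Calr* and *Pdia3*, which encode calreticulin and ERp57 of the peptide-loading complex, fell from 2143 ± 36.2 to 1127 ± 38.0 CPM and from 1641 ± 79.1 to 999 ± 101 CPM. *Tapbpl*, the tapasin-related peptide editor, fell by 0.96 on the log2 scale, close to the fall of *Tapbp*, and *Sec61b* of the translocon fell by 1.12. *Erap1*, the aminopeptidase that trims peptides to class I length, had a log2 fold change of -0.29 (adjusted p = 0.0335) and lost its call in 6 of the alternatives. *Canx*, the chaperone calnexin, was called higher at 0.38, and with the GC term it was at 0.04 and not called. Of the cytosolic peptidases, 2 of 5 were lower and 1 higher, against 34.1% and 36.2% in the whole table, with *Blmh* at a log2 fold change of -1.28. *Lap3* at -0.14 lost its call in 12 of the alternatives, and *Tpp2* at 0.27 turned to -0.15 with the GC term, under which all 5 were called lower. Of the proteasome caps and assembly factors, *Psme1* and *Psme2*, the interferon-inducible cap that is known to work with the immunoproteasome, fell by 0.59 and 0.38, *Psme4* fell by 0.34, and *Psme3*, the nuclear cap, rose by 0.54, while the assembly factor *Pomp*, at 0.16, lost its call in 6 of the alternatives and turned to -0.02 with the GC term.

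**Figure D4:**
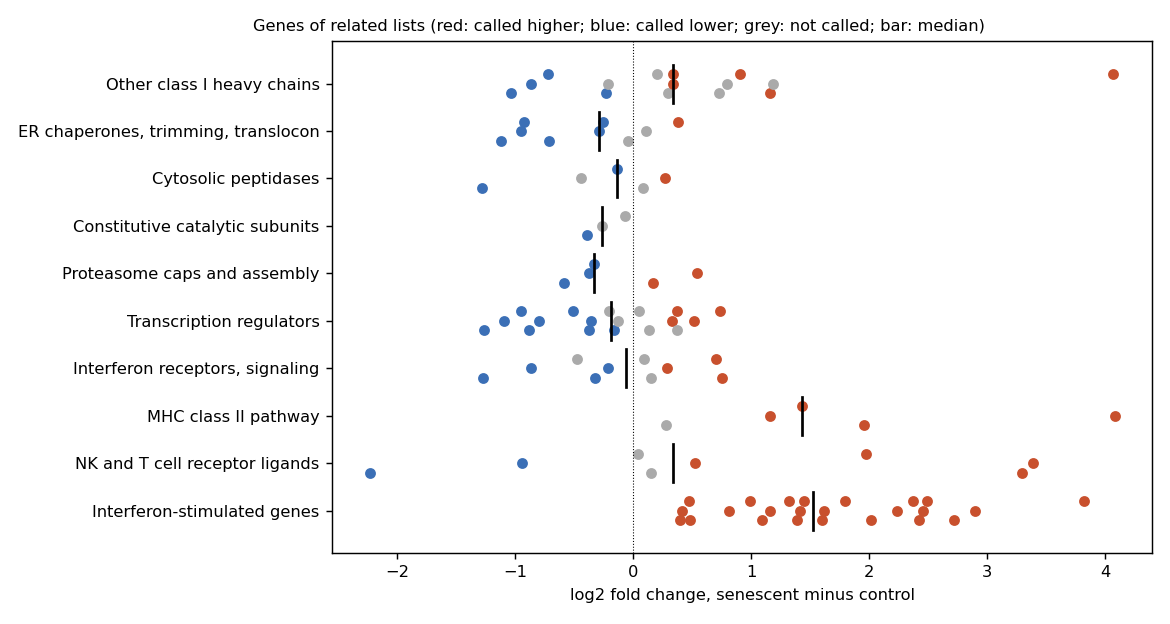
Log2 fold change of senescent minus control cells (x axis) of every tested gene of 10 related lists (rows; points, red called higher, blue called lower, grey not called; bar, median of the list). Interferon-stimulated genes all lie above 0 with a median of 1.52, while the endoplasmic reticulum list and the proteasome caps have medians of -0.29 and -0.34.

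By position, 7 of the 10 genes lie within 1.35 Mb of the MHC on chromosome 17, from 33915899 (*Tapbp*) to 35267499 (*H2-D1*) in mm10, an interval of 146 genes. Of the 76 other tested genes there, 16 were higher (21.1%), 33 lower (43.4%) and 27 not called, against 36.2% and 34.1% in the whole table. *H2-K1*, *H2-D1* and *Psmb8* were higher within this interval, *Tapbp* was lower, and *Tap1*, *Tap2* and *Psmb9* were not called. *Psmb9*, *Tap1*, *Psmb8* and *Tap2* lie side by side, and of these neighbours *Psmb8* alone passed the test.

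**Figure D5:**
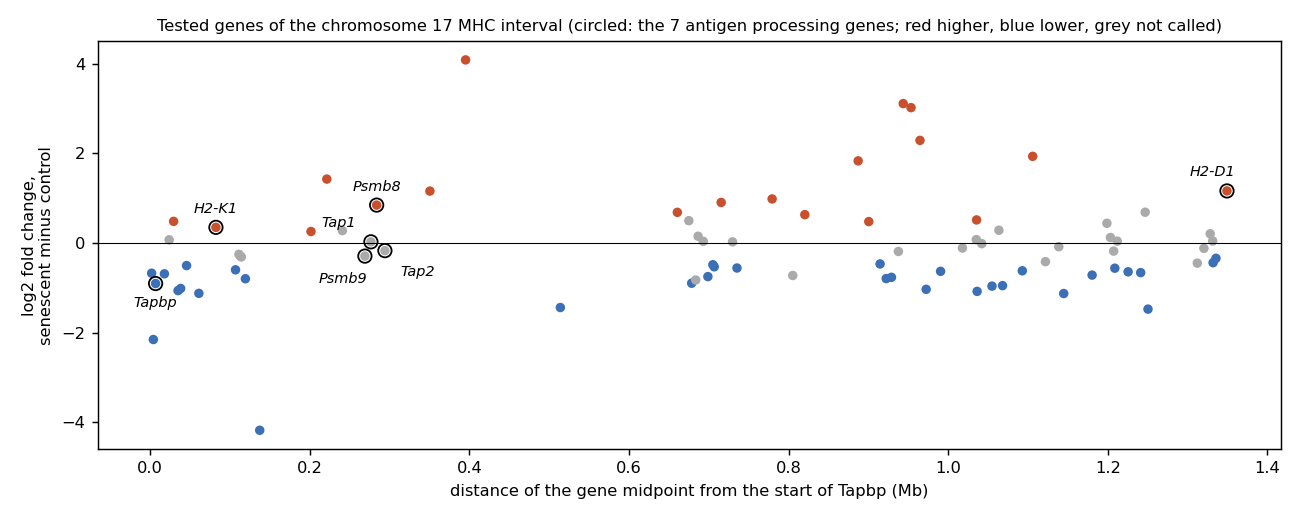
Log2 fold change (y axis) of the 83 tested genes of the chromosome 17 interval against the distance of their midpoint from the start of *Tapbp* (x axis, Mb), with the 7 antigen processing genes circled. *H2-K1* and *H2-D1*, at opposite ends, lie at 0.35 and 1.16, and the cluster of *Psmb9*, *Tap1*, *Psmb8* and *Tap2* spans values from -0.29 to 0.84.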

How the data were processed

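RNA-seq of polyadenylated RNA from 3 control and 3 senescent MAF samples was used. Libraries came from a stranded mRNA kit. Per the labels and the study's methods, alignment used STAR (mm10) within MAPRSeq, and the raw counts per gene that the authors deposited, beside gene lengths, were made by Subread. Strand setting and handling of multi-mapping reads are not given in the sources used here. Column names matched the sample titles. Genes were filtered with filterByExpr, libraries scaled by TMM, and groups compared with edgeR 4.0.16 (R 4.3.3, quasi-likelihood test, robust form, group as the only term, two-sided), with Benjamini-Hochberg adjustment over 17589 genes. CPM is TMM-scaled and RPKM divides it by the deposited gene length. The SE is the log2 fold change over the root of the F statistic, and its 95% interval uses a normal quantile.

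The members and lists were chosen with earlier results of these data known. Of the listed genes, *Nrdc*, *Raet1a*, *Raet1b* and *Raet1c* were not matched. Named genes were the 10 members, their direct partners, up to 3 genes per direction of each list by smallest p, and the 3 genes nearest to *H2-K1* at a mean of at least 10 CPM (log2 CPM with a prior count of 2). GC content came from the longest GENCODE M21 transcript (GRCm38), known for 99.1% of tested genes. Alternatives were scaling by RLE or by library size alone, no filter, a minimum of 10 counts per library, the exact test of edgeR, a fit with DESeq2 1.42.0, a replicate term, each library left out, and, added after seeing the data, a GC term. The GC term was each library's smooth trend of gene-centred log2 CPM on GC content, including its mean level, used as an offset. Ratios were also computed with a prior count of 0.5. The fits were tested on simulated data. Within a group, the squared differences between the counts of 2 libraries had a median of 1.75 to 16.3 times the value that chance gives. The highest, 12.7 and 16.3, were the pairs with senescent replicate 3. All 6 libraries were counted separately, though technical differences between libraries can give such values too, so these do not show independent replicates.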

Additional observations from a re-analysis of the deposited data

How the results depend on the processing

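*Nlrc5*, *B2m*, *H2-D1*, *H2-K1*, *Psmb8* and *Tapbp* kept their direction and their call in all 14 alternatives, and *Tap2* and *Psmb9* stayed without one. When each library was left out in turn, *Psmb10* ranged from -0.90 to -0.47 and lost its call without control replicate 2 (adjusted p = 0.0532) or 3 (0.0565), *Tap1* ranged from -0.068 to 0.18 and gained one without senescent replicate 3, and among the 10, the number higher ranged from 5 to 6 and the number lower from 1 to 2. Among listed genes, the GC term turned *Tpp2* (-0.15) and *Pomp* (-0.015) below 0. The GC term moved the median log2 fold change of all genes to -0.17, with 5709 genes called higher and 8286 lower in place of 6360 and 6005, and *B2m* to 1.24. Since this term also rescales the libraries, a change given with it, such as the turn of *Pomp*, can include a shift of all genes. Without the filter on low counts, 13739 of 29776 genes were called and the median was 0.31. The cause of these changes was not tested.

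Replicate numbers showed no clear pairing of the samples. Same-numbered samples deviated from their group means with r of -0.145, 0.135 and -0.120, and samples did not each correlate best with their own number. With 3 libraries in a group, and deviations that partly follow GC content, this check cannot exclude a pairing by animal or culture. A replicate block changed the call of none of the 10 genes and gave 11624 called genes in place of 12365. At 64 to 107 counts, *Psmb9* and the control values of *Nlrc5* rest on the fewest reads.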

Other observations

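Genes for antigen presentation and immune recognition outside the class I pathway moved as well. Of the MHC class II pathway, 4 of 5 tested genes were higher in senescent cells, against 36.2% in the whole table, and 6 were below the filter. *H2-Eb1*, a class II chain, rose from 0.180 ± 0.0373 to 3.12 ± 0.0637 CPM, *Cd74*, the invariant chain, from 0.491 ± 0.131 to 1.90 ± 0.429 CPM, and *H2-DMa*, which helps to load class II peptides, from 1.76 ± 0.171 to 4.73 ± 0.628 CPM (± SD, n = 3).

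Ligands of NK and T cell receptors went in both directions, with 4 of 8 tested genes higher, 2 lower and 2 not called, against 36.2% and 34.1% in the whole table. *Cd274*, which encodes the checkpoint ligand PD-L1, rose from 0.554 ± 0.104 to 5.88 ± 0.368 CPM, and *Pvr*, a ligand of the receptors DNAM-1 and TIGIT, from 50.7 ± 0.995 to 199 ± 4.83 CPM. Among ligands of the activating receptor NKG2D, *H60b* rose from 0.127 ± 0.0302 to 1.25 ± 0.288 CPM, while *Ulbp1* fell from 12.6 ± 1.13 to 2.67 ± 0.441 CPM and *Raet1d* from 6.99 ± 0.326 to 3.60 ± 0.862 CPM. Genes of the Raet1 family are near-copies, and their reads can have been exchanged.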
